A study of Ovis aries with 15 samples.

Results

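The macrophage marker and C1q genes are 10 listed symbols: C1QA, C1QB and C1QC, which encode the chains of complement C1q; CD68, CD163, CD14, MRC1 and AIF1, used as markers of macrophages; and CSF1 with its receptor CSF1R. They were chosen by name, and a row of the deposited table was taken as a member where the symbol in its name was the listed one. Of the 10 symbols, 9 were found among the 24691 features of the table; CD163 was not found under that symbol and was not analysed here. Expression was measured in needle biopsies of the mammary parenchyma of primiparous Romney ewes, taken in late pregnancy (about day 135 of gestation) and in lactation (about day 15 post partum). RNA of several ewes was pooled for each library, with 9 pools of late pregnancy and 6 of lactation. All ewes received the same feed, and the pools differed within a state by the pasture allowance of the ewes' own dams in early gestation, which was ad libitum, maintenance or sub-maintenance, followed for all of these dams by maintenance feeding. Each of these dam groups held 3 pools of late pregnancy and 2 of lactation. Ewes were biopsied in both states, and the labels do not say which ewes are in which pool, so that the pools of the states may share animals. No strain difference, transgene or drug is part of the comparison.

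C1q is the recognition molecule of the classical complement pathway; it binds antibody complexes and the surface of dying cells, and its chains are made from 3 neighbouring genes, mainly in macrophages. CSF1, a growth factor, and IL34, a second ligand, act through the receptor CSF1R, on which the survival of most tissue macrophages depends. In the mammary gland, macrophages lie in the stroma and close to the ducts and alveoli, and they are known to be needed for normal growth of the ducts and for clearance of cells after weaning.

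The 3 C1q genes lie together on chromosome 2 in the coordinates of the deposited table (Oar_v3.1 per the labels, although the methods of the study name another version, so that the build is in doubt), within 45464 bases. C1QB is at 243051447 to 243058411 with 3 exons, C1QC at 243066386 to 243070941 with 3 exons, and C1QA at 243075637 to 243096910 with 6 exons over 2 transcripts. CSF1R is on chromosome 5 at 58896053 to 58927209 with 21 exons, CD14 on the same chromosome at 49150405 to 49151523 in 1 exon, CSF1 on chromosome 1 at 86382968 to 86393572, MRC1 on chromosome 13 at 31334882 to 31446558 with 30 exons, CD68 on chromosome 11 at 26871454 to 26873513, and AIF1 on chromosome 20 at 26823422 to 26825682. For all 9 genes, 100% of the reads on exons were uniquely placed, and no other feature of the table overlapped them.

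Libraries of late pregnancy held 7597938 to 19823166 reads on genes and those of lactation 10352962 to 25679416. The 7 milk protein genes listed took 13.7% to 23.4% of the counts in late pregnancy and 71.3% to 75.8% in lactation, which left a smaller part of each lactation library for every other gene. Levels are given as CPM (the count of a gene per 1000000 counts of the library) after TMM scaling, which balances the changes of the bulk of the genes around 0; a change is therefore relative to that bulk. Without such scaling the median log2 change of all tested genes was -1.93, and with it -0.03. A gene is called where the quasi-likelihood test of edgeR gave a Benjamini-Hochberg adjusted p under 0.05. All 9 genes passed the filter on low counts. Between the states, 68.4% of the 13345 tested genes were called, 35.2% as lower and 33.1% as higher in lactation, and 40.2% had no overlap between the libraries of the states.

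Of the 9 genes, 5 were lower in lactation (C1QA, C1QB, C1QC, AIF1 and CSF1R), CD14 was higher, and CD68, MRC1 and CSF1 were not called. The share called was close to that of all genes, so that the count itself does not set these genes apart. Their median log2 change was -0.45, beside -0.03 for all tested genes. For 5 of the 9 there was no overlap between the states, namely the C1q genes, AIF1 and CD14. In a bulk biopsy, fewer cells of a type and less RNA per cell cannot be told apart.

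**Figure D1:**
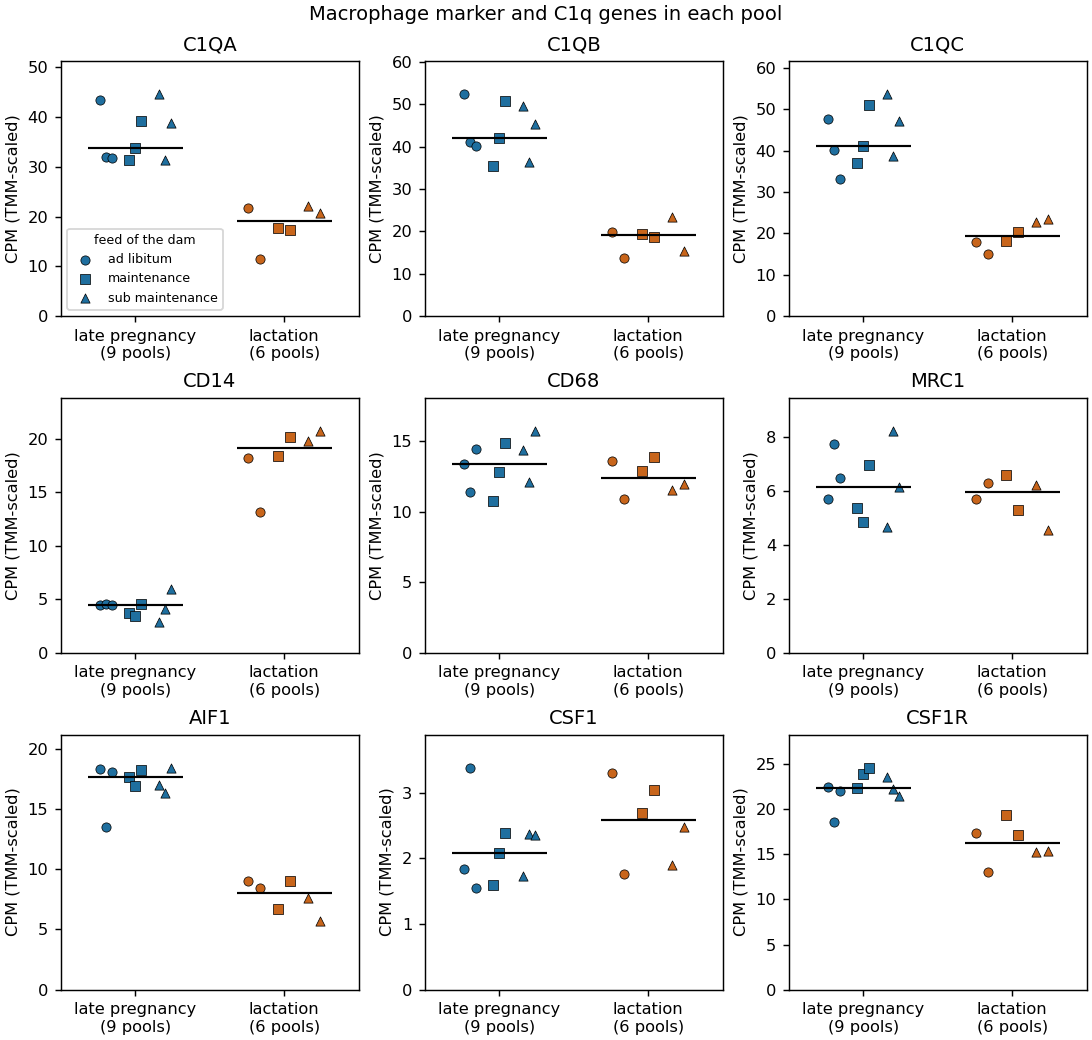
TMM-scaled CPM (y axes, from 0, a scale per gene) of the 9 genes in each pool of late pregnancy (blue, 9 pools) and lactation (orange, 6 pools), with symbols for the feed of the dam and a line at the median. The C1q genes and AIF1 sit lower and CD14 higher in every lactation pool than in any pool of late pregnancy, while CD68, MRC1 and CSF1 overlap.

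The C1q genes were expressed at about 2-fold lower levels in lactation. C1QB, which encodes the B chain, ranged from 35.4 to 52.3 CPM in late pregnancy with a median of 42.1 and from 13.7 to 23.3 CPM in lactation with a median of 19.0. The highest lactation pool lay well below the lowest pool of late pregnancy. Its mean was 43.7 ± 6.18 CPM (SD, n = 9) in late pregnancy and 18.4 ± 3.41 CPM (SD, n = 6) in lactation, a 2.36-fold lower level (log2 change -1.24, SE 0.11, 95% interval -1.47 to -1.0, edgeR adjusted p = 6.92e-09).

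C1QC, the gene of the C chain, ranged from 33.2 to 53.7 CPM with a median of 41.1 in late pregnancy and from 15.1 to 23.6 CPM with a median of 19.3 in lactation. It was 2.21-fold lower in lactation (log2 change -1.14, 95% interval -1.38 to -0.90, edgeR adjusted p = 2.95e-08). C1QA, the gene of the A chain, ranged from 31.3 to 44.6 CPM with a median of 33.7 in late pregnancy and from 11.4 to 22.1 CPM with a median of 19.2 in lactation. Its level was 1.97-fold lower (log2 change -0.98, 95% interval -1.24 to -0.72, edgeR adjusted p = 6.73e-07). As a share of all counts of a library, which no scaling enters, C1QB fell from a mean of 0.0074% to 0.000836%, a larger drop than on the scaled levels that also holds the larger share of the milk protein genes.

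LOC101123446, a feature with no transcript that lies between C1QB and C1QC, was also lower in lactation (log2 change -0.73, edgeR adjusted p = 0.00886); it was chosen after its values were seen. Among the pools of a state the 3 C1q genes moved together. After removal of the mean of each state, the correlation of log2 CPM over the 15 libraries was 0.81 for C1QA with C1QC, 0.80 for C1QA with C1QB and 0.65 for C1QB with C1QC. The points share library and depth, so these values are a description. With CD68 the correlation of C1QB was 0.55, and with AIF1 it was 0.22.

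The ratio of 2 genes within a library does not depend on how libraries are scaled. C1QA per C1QB read was 0.771 to 0.897 in late pregnancy with a median of 0.830, and 0.834 to 1.34 in lactation with a median of 0.938. The ranges overlapped, and the mean log2 ratio was higher in lactation by 0.27 (exact permutation test over 5005 splits, two-sided p = 0.0024, adjusted over 4 ratios 0.0048). Lactation sub-maintenance pool 2 had the highest ratio, with 109 reads on C1QA and 81 on C1QB, and without it the difference was 0.18 (exact permutation test, adjusted p = 0.012). C1QC per C1QB read had medians of 1.01 and 1.03, and its mean log2 ratio differed by 0.12 (exact permutation test, p = 0.30), within the spread of the pools.

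AIF1, which encodes the calcium-binding protein IBA1 of macrophages, changed about as much as the C1q genes. It ranged from 13.5 to 18.5 CPM in late pregnancy with a median of 17.7 and from 5.71 to 9.01 CPM in lactation with a median of 8.01. No lactation pool reached the lowest level of late pregnancy. The level was 2.23-fold lower (log2 change -1.16, SE 0.10, 95% interval -1.37 to -0.95, edgeR adjusted p = 2.50e-09).

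CSF1R, the receptor that most tissue macrophages require, was also lower in lactation but by less. It ranged from 18.6 to 24.6 CPM with a median of 22.3 in late pregnancy and from 13.0 to 19.4 CPM with a median of 16.3 in lactation. The states overlapped at their edges, in that the lowest pool of late pregnancy was below the highest of lactation. The difference was 1.37-fold (log2 change -0.45, SE 0.08, 95% interval -0.62 to -0.28, edgeR adjusted p = 4.92e-05). The intervals of CSF1R and of each C1q gene did not meet.

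CSF1, the ligand, was the least abundant of the 9 genes by reads, with 21 to 70 reads in the libraries of late pregnancy and 10 to 31 in those of lactation. It ranged from 1.55 to 3.38 CPM with a median of 2.08 in late pregnancy and from 1.76 to 3.29 CPM with a median of 2.58 in lactation. The pools of the states overlapped throughout, and the gene was not called (log2 change 0.26, 95% interval -0.15 to 0.67, edgeR adjusted p = 0.245). Its direction depended on the scaling, with a log2 change of -1.64 when only the library size was used (edgeR adjusted p = 1.87e-07), and limma on the quantile-normalized RPKM called it higher (log2 change 0.27, adjusted p = 0.034).

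The ratio of CSF1 to CSF1R within a library was higher in lactation, where CSF1R was lower and CSF1 itself was not called. There were 0.0719 to 0.183 reads of CSF1 per read of CSF1R in late pregnancy with a median of 0.0879, and 0.128 to 0.195 in lactation with a median of 0.153. The mean log2 ratio was higher by 0.73 (exact permutation test, two-sided p = 0.0044, adjusted over 4 ratios 0.00586). One pool of late pregnancy, ad libitum pool 2, lay within the range of lactation, and without it the difference was 0.85 (exact permutation test, adjusted p = 6.66e-04).

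CD14, the co-receptor for bacterial lipopolysaccharide, went the other way from the C1q genes. It ranged from 2.89 to 5.96 CPM in late pregnancy with a median of 4.42 and from 13.2 to 20.7 CPM in lactation with a median of 19.1. The lowest lactation pool was above the highest pool of late pregnancy. Its mean was 4.23 ± 0.865 CPM (SD, n = 9) in late pregnancy and 18.4 ± 2.75 CPM (SD, n = 6) in lactation, a 4.38-fold higher level relative to the bulk of the genes (log2 change 2.13, SE 0.13, 95% interval 1.86 to 2.40, edgeR adjusted p = 1.79e-11). On library size alone the log2 change was 0.22 (edgeR adjusted p = 0.13), which is 2.16 above the median of all genes on that scale.

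Per read of CSF1R, CD14 gave 0.123 to 0.278 reads in late pregnancy with a median of 0.185, and 0.951 to 1.34 reads in lactation with a median of 1.11. This 6.04-fold difference needs no scaling and the states did not overlap (exact permutation test, two-sided p = 0.0002, the smallest the 5005 splits can give, adjusted over 4 ratios 7.99e-04). CD14 is also made by cells other than macrophages, and soluble CD14 is a known component of milk. Luminal epithelial markers were called higher for 3 of 5 genes in these libraries, beside 33.1% of all tested genes. Their median log2 change was 0.30, and the states did not overlap for 1 of the 5. Their summed level was 746 to 1127 CPM in late pregnancy and 1197 to 1448 CPM in lactation. The part of epithelial cells in the level of CD14 was not tested.

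**Figure D2:**
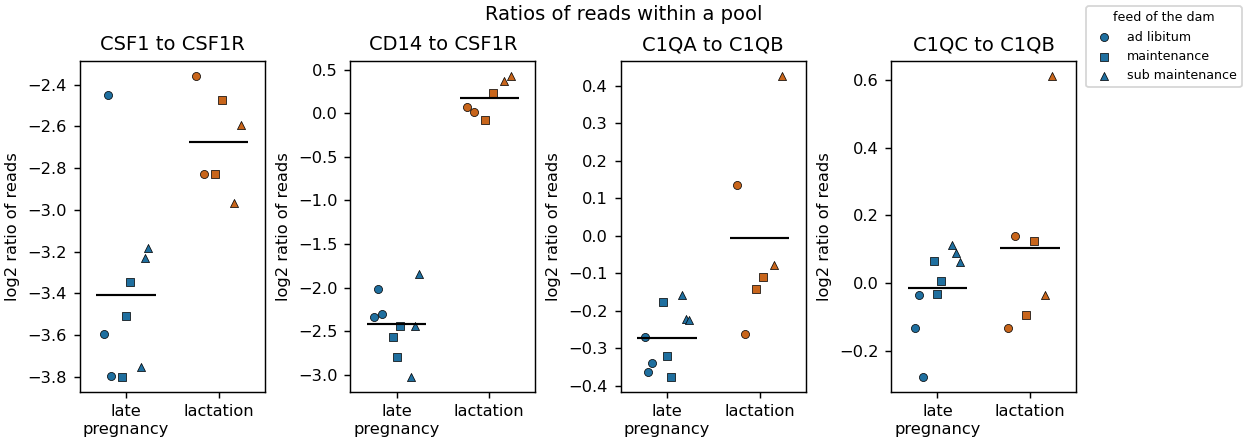
Log2 ratio of reads of 2 genes within each pool (y axes, a scale per ratio), in late pregnancy (blue, 9 pools) and lactation (orange, 6 pools), with lines at the means and symbols for the feed of the dam. CD14 per CSF1R separates the states without overlap, CSF1 per CSF1R is higher in lactation save for 1 pool of late pregnancy, and the C1q ratios overlap, with lactation sub-maintenance pool 2 highest in both.

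CD68 and MRC1 were not called. CD68, a lysosomal glycoprotein, ranged from 10.7 to 15.7 CPM with a median of 13.4 in late pregnancy and from 10.9 to 13.9 CPM with a median of 12.4 in lactation (log2 change -0.09, 95% interval -0.29 to 0.10, edgeR adjusted p = 0.385). MRC1, the mannose receptor CD206, ranged from 4.66 to 8.24 CPM with a median of 6.15 in late pregnancy and from 4.56 to 6.61 CPM with a median of 5.97 in lactation (log2 change -0.09, 95% interval -0.39 to 0.21, edgeR adjusted p = 0.600). All lactation pools lay within the range of late pregnancy for CD68, and all but the lowest for MRC1. On library size alone both had a log2 change of -2.0 and were called lower, close to the median of all genes on that scale. CD68 was also called lower with upper quartile scaling (log2 change -0.24, edgeR adjusted p = 0.028), and MRC1 was at 0.079 by limma on the quantile-normalized RPKM. The upper bound of a fall that the intervals allow, 0.29 for CD68 and 0.39 for MRC1 on the log2 scale, is smaller than the fall of each C1q gene and of AIF1.

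**Figure D3:**
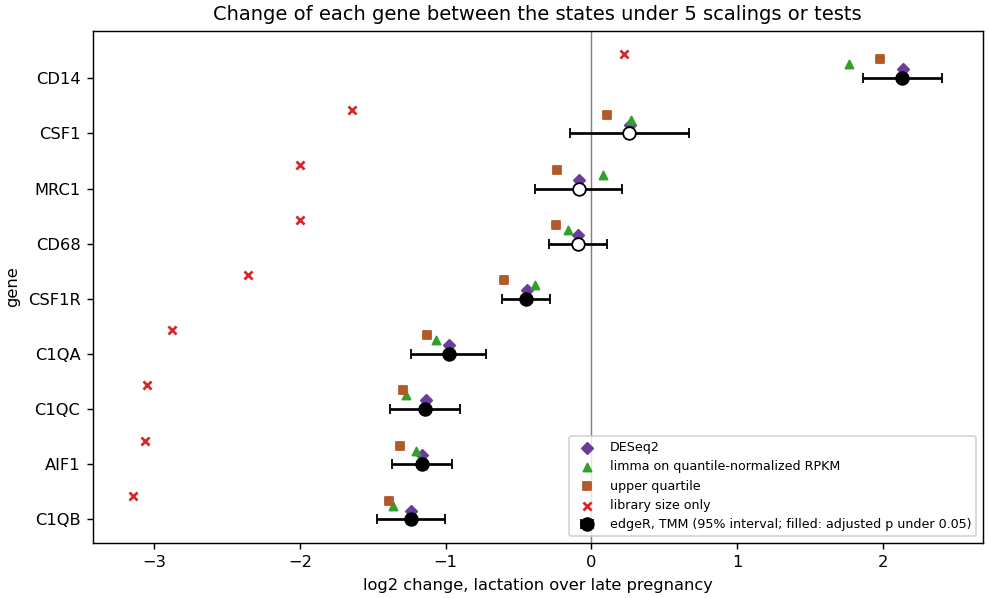
Log2 change of each gene (x axis, lactation over late pregnancy) by edgeR with TMM scaling (black, with 95% intervals, filled where the adjusted p is under 0.05) and by 4 other scalings or tests. The C1q genes, AIF1 and CSF1R lie below 0 under each; library size alone (red crosses) moves every gene down, as it does the median of all genes (-1.93), and takes CSF1 from 0.26 to -1.64.

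Among all tested genes, the log2 change of C1QB stood at percentile 9.53, AIF1 at 10.6, C1QC at 10.9, C1QA at 13.6, CSF1R at 28.6, CD68 at 46.3, MRC1 at 46.8, CSF1 at 67.9 and CD14 at 97.1.

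Levels of different genes were compared per kilobase of exon. In late pregnancy the order by median was C1QC at 37.3 CPM per kilobase, C1QB at 35.4, AIF1 at 25.0, C1QA at 24.0, CD68 at 10.3, CSF1R at 5.91, CD14 at 3.95, CSF1 at 1.60 and MRC1 at 1.41. Ranges of neighbours did not overlap between C1QB and AIF1, between C1QA and CD68, and between CD68 and CSF1R; the other neighbours overlapped. Within a pool, CSF1R was above CD14 and CD14 above CSF1 in 9 of 9, C1QC above C1QB in 7 of 9 and CSF1 above MRC1 in 6 of 9, while AIF1 was above C1QA in 3 of 9. In lactation the order was C1QC at 17.5 CPM per kilobase, CD14 at 17.1, C1QB at 16.0, C1QA at 13.7, AIF1 at 11.3, CD68 at 9.52, CSF1R at 4.30, CSF1 at 1.99 and MRC1 at 1.37. There only CD68 and CSF1R, and CSF1R and CSF1, had ranges apart. CD14 thus stood 7th in late pregnancy and 2nd in lactation, where its range overlapped those of the C1q genes.

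**Figure D4:**
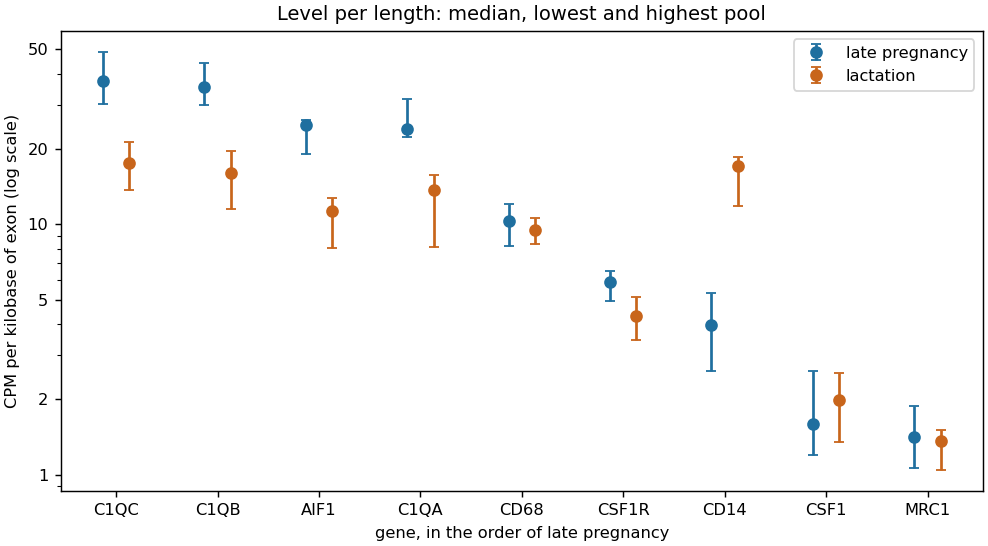
Median CPM per kilobase of exon (y axis, log scale) of each gene in late pregnancy (blue) and lactation (orange), with bars from the lowest to the highest pool. The C1q genes and AIF1 lead in late pregnancy at 24.0 to 37.3, and CD14 joins them in lactation at 17.1.

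Reads on introns are the reads on a whole gene less those on its exons. Of 10344 genes tested on intron reads, 58.0% were called. Among the 9 genes 4 passed the filter. C1QC had a log2 change of -1.56 (edgeR adjusted p = 8.85e-04) and AIF1 of -1.28 (edgeR adjusted p = 5.69e-04). CSF1R had a log2 change of -0.09 (edgeR adjusted p = 0.776) and CSF1 of 0.08 (edgeR adjusted p = 0.892). The intron reads were few, with 246 for C1QC and 212 for AIF1 over all libraries of late pregnancy and 20 and 21 over those of lactation. C1QC and AIF1 thus passed the filter through their reads in late pregnancy, the state where they are higher, and their intron values are given as a description only. C1QA, C1QB, CD68 and MRC1 did not pass, with 69, 90, 69 and 74 intron reads over late pregnancy and 5, 6, 27 and 18 over lactation, and CD14 has no intron.

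The feed of the dams was compared over the 9 pools of late pregnancy. None of the 13747 tested genes was called by edgeR (0.0%, with 571 at an unadjusted p under 0.05), and for the 9 genes the adjusted p was 0.9997 throughout. The largest difference was in MRC1, by 0.21 on the log2 scale between ad libitum and maintenance, and the lowest unadjusted p was 0.293, for CSF1R. CD14 had means of 4.47, 3.90 and 4.31 CPM in the ad libitum, maintenance and sub-maintenance pools of late pregnancy. The change between states did not differ detectably between the dam groups, with 0.0% of 13345 genes called by edgeR (876 at an unadjusted p under 0.05) and adjusted p of 0.868 to 0.955 for the 9 genes.

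Other genes listed for macrophages, among them IL34 as a ligand of CSF1R, were mostly lower in lactation as well. Of 34 listed genes, 31 were found and 26 tested, of which 17 were lower, 3 were higher and 6 were not called, with no overlap between the states for 13. Of all tested genes 35.2% were lower, 33.1% were higher and 40.2% had no overlap. TREM2, CCR2, VSIG4, HPGDS and SLC11A1 were found but did not pass the filter on low counts. The median log2 change of the 26 tested genes was -0.93, beside -0.03 for all tested genes, and -0.43 by limma on the quantile-normalized RPKM, beside -0.05 for all tested genes. FCGR2B, an Fc receptor that inhibits, was the most abundant in late pregnancy, at 833 ± 58.3 CPM (SD, n = 9) in late pregnancy and 125 ± 31.3 CPM (SD, n = 6) in lactation (log2 change -2.74, edgeR adjusted p = 4.78e-14). PTPRC, found on all leukocytes, had a mean of 39.2 CPM in late pregnancy, and which cells gave the level of FCGR2B was not tested.

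MERTK, a receptor by which macrophages take up dying cells, had means of 10.6 and 2.70 CPM (log2 change -1.90, edgeR adjusted p = 5.54e-10). CTSS, the lysosomal protease cathepsin S, had means of 108 and 30.1 CPM (log2 change -1.84, edgeR adjusted p = 1.01e-11). MPEG1, which encodes a pore-forming protein of macrophages, had a log2 change of -1.25 (edgeR adjusted p = 8.58e-08). TIMD4, a receptor for phosphatidylserine, had a log2 change of -1.13 (edgeR adjusted p = 1.32e-05), which rests on 5 to 23 reads in the libraries of lactation. C3AR1, the receptor for the complement fragment C3a, gave 19 or more reads in each library of late pregnancy and 2 to 10 in lactation, and LST1 gave 14 or more and 2 to 7. SIGLEC1, the sialoadhesin CD169, gave 11 or more reads in each library of late pregnancy and 0 to 2 in lactation, and LY86 gave 4 or more and 0 to 4. No fold is given for these 4 genes, which are among the 17 lower ones and had few reads in lactation. They passed the filter on low counts through their reads in late pregnancy, the state where they are higher. SIGLEC1, C3AR1 and LST1 are also among the 13 without overlap, and all 4 enter the median of the list. The counts and the median of this list are therefore given as a description only.

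IL34, the other ligand of CSF1R, was lower in lactation, unlike CSF1. It ranged from 26.1 to 41.3 CPM with a median of 29.8 in late pregnancy and from 8.78 to 15.4 CPM with a median of 13.0 in lactation, without overlap (log2 change -1.37, SE 0.13, edgeR adjusted p = 2.02e-08). The 3 that were higher were ITGAM, the integrin CD11b, at a mean of 0.807 and 1.61 CPM (log2 change 1.01, edgeR adjusted p = 0.00309), HMOX1, heme oxygenase (log2 change 0.71, edgeR adjusted p = 1.01e-05), and CSF2RB, a shared receptor chain (log2 change 0.34, edgeR adjusted p = 0.00945). The change of ITGAM rests on low levels, which limits its size. All 3 lie outside the rule for named genes and were chosen after their values were seen. On library size alone none of the list was higher.

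Of 11 listed genes of the classical complement pathway and of other partners of C1q, 9 were found and tested. Of these 4 were lower, 1 was higher and 4 were not called, with a median log2 change of -0.35. C2, C3, C4A and LRP1 were the ones not called. Beside C1R and C1S, the lower genes were C1QBP (log2 change -0.84) and CD93 (log2 change -0.35), named after their values were seen. The share called, 5 of 9, is below the 68.4% of all tested genes, so that it does not set the list apart. The proteases that join C1q in the C1 complex were both lower. C1S had means of 56.4 ± 5.59 CPM (SD, n = 9) and 31.4 ± 8.54 CPM (SD, n = 6) without overlap (log2 change -0.84, edgeR adjusted p = 3.23e-06). C1R had means of 28.6 ± 3.37 CPM (SD, n = 9) and 20.6 ± 4.13 CPM (SD, n = 6) with overlap (log2 change -0.45, edgeR adjusted p = 9.43e-04). The gene that was higher was CALR, the chaperone calreticulin, which also binds C1q (log2 change 0.42, edgeR adjusted p = 7.87e-05; chosen after its values were seen), and on library size alone all 9 were lower.

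Markers of other cells also differed between the states, as did 68.4% of all tested genes (35.2% lower and 33.1% higher). The counts below are to be read beside these shares. Of the 8 genes shared by leukocytes, 6 were lower and 2 were not called, with a median log2 change of -1.20. PTPRC, the leukocyte antigen CD45, had means of 39.2 ± 4.27 CPM (SD, n = 9) and 15.0 ± 2.29 CPM (SD, n = 6) (log2 change -1.37, edgeR adjusted p = 1.01e-10). All 7 T cell genes were lower (median -1.62), as were 3 of 4 fibroblast genes and 3 of 3 endothelial genes. Of 4 tested genes of B and plasma cells 2 were higher and 1 was lower, of 5 myoepithelial genes 1 was higher and 2 were lower, and none of 3 adipocyte genes was called. The listed neutrophil genes summed to 0.742 to 1.71 CPM in late pregnancy and 0.527 to 2.64 CPM in lactation, with 1 tested and not called. The 9 macrophage marker and C1q genes summed to 165 to 213 CPM in late pregnancy and 93.8 to 131 CPM in lactation, and the other macrophage genes to 1363 to 1648 CPM and 655 to 970 CPM, of which FCGR2B alone gave 718 to 932 CPM and 95.9 to 185 CPM. CSF2RB, with means of 396 and 501 CPM, made up most of the rest, so that these sums follow mainly a pair of genes. None of the listed macrophage genes that were found was at 0 in all libraries. The part of a changed mix of cells in the levels of single genes was not tested.

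For 4 of the genes, the tested genes most like them among the pools of a state were sought, by the correlation of log2 CPM over the 15 libraries after removal of the mean of each state. For C1QB these were LOC101102642 (0.85), IFIT2 (0.84) and ABHD12 (0.81). For CSF1R they were KLK7 (0.86), LOC780457 (0.86) and LOC101120815 (0.85), for CD14 FAM35A (0.83), C5H5orf45 (0.79) and SOGA1 (0.78), and for CSF1 C2CD3 (0.89), SOCS6 (0.86) and TTC17 (0.86). They are the highest of 13345 genes over few points that share library and depth.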

How the data were processed

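Pooled RNA of mammary biopsies was sequenced as paired reads, and each library was run on 2 lanes that were combined. The column name of each library gives only 1 lane, 7 or 8, so that a split by this name need not be a split by lane. The authors mapped the reads with CLC Genomics Workbench (build Oar_v3.1 per the labels, while the methods of the study name another version of the sheep genome) and deposited 1 table for all 15 libraries, which holds counts of reads on exons and on whole genes, without normalization. The deposited RPKM values are reads per kilobase of exon and per 1000000 reads on genes, which recomputing gave to within 3.5e-07 of their size, and the authors' normalized values are RPKM after quantile normalization. Fold changes and p-values of the authors' own test are also in the table and were not used. Each column was tied to its sample by the title in its name.

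Exon reads (whole-gene reads for the 5583 features with no transcript) were tested with edgeR 4.0.16 in R 4.3.3, in place of the test the authors used on RPKM: filterByExpr by state, TMM, quasi-likelihood F-test without covariates, and Benjamini-Hochberg adjustment over all tested genes. Counts tested summed to 6471237 to 16898986 per library in late pregnancy and 9014506 to 24001031 in lactation. Intron reads were tested in the same way. For 4 ratios of reads, with a pseudocount of 0.5, the states were compared with an exact permutation test. Alternatives were DESeq2 1.42.0, limma 3.58.1 on log2(normalized RPKM + 1), other scalings and filters, and leaving out each library. Reads carry no molecular identifiers, so precision is given by the spread of the pools, which are mixtures of ewes, and p-values measure the spread between pools.

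The genes and lists were chosen with earlier results of these data known. Beside the 10 listed genes, those named are the called genes of the other macrophage and complement lists with an absolute log2 change above 1 (at most 10 per list), C1R, C1S, IL34 and PTPRC, and the 3 genes most like each of C1QB, CSF1R, CD14 and CSF1.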

Additional observations from a re-analysis of the deposited data

Results flagged for a closer look

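In 26 groups of values (9 genes and 4 ratios in each state), 5 had a lowest or highest pool set apart from the others by more than Dixon's limit, which chance gives in about 1 of 20. Of these, 3 were the same library, ad libitum pool 2 of late pregnancy, the one with the fewest reads: AIF1 was lowest there at 13.5 CPM (next 16.3), CSF1 highest at 3.38 CPM (next 2.39), and the log2 ratio of CSF1 to CSF1R highest at -2.45 (next -3.18). The level of CSF1 and this ratio share the same 37 reads of CSF1, and the groups share libraries. The groups are thus not independent, which limits the comparison with chance. Without ad libitum pool 2 of late pregnancy the log2 change was -1.19 for AIF1 and 0.34 for CSF1 (edgeR adjusted p = 8.38e-10 and 0.095). CD14 was lowest among the lactation pools in ad libitum pool 2, at 13.2 CPM beside 18.2 for the next, and its log2 change without that pool was 2.21 (edgeR adjusted p = 1.77e-11). The log2 ratio of C1QC to C1QB was highest among the lactation pools in sub-maintenance pool 2, at 0.61 beside 0.14 for the next, and without it the difference between the states was 0.017 in place of 0.12.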

How the results depend on the processing

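Over the alternatives that keep all libraries or use those named with 1 lane, 160 of 176 values kept their direction and side of the threshold or, for a count of genes, stayed within 1.5 times of it. Some of these could hardly move. With uniquely placed reads alone the 9 genes, at 100% uniquely placed, keep nearly the same reads. With library size only, 0 of the 9 genes were called higher, 8 lower and 9 complement genes called; log2 changes were -1.64 for CSF1, -2.0 for CD68 and for MRC1 and 0.22 for CD14, 97.3% of 13058 calls were lower, and against the median of all genes CSF1 was at 0.29 and CD14 at 2.16. With upper quartile scaling CD68 was called (log2 change -0.24, adjusted p = 0.028), and 63.7% of all calls were lower beside 51.6% with TMM. With limma on quantile-normalized RPKM, 2 genes were called higher, CSF1 being added (0.27, adjusted p = 0.034), and MRC1 was at 0.079. The median log2 change of the other macrophage genes was -0.43 by limma, -0.69 in the libraries named with lane 7 and -0.78 without the filter, beside -0.93. Without the filter 4 genes were called on intron reads. Pools with the same number did not deviate together (correlations of -0.028 to 0.092), and a replicate block gave 8464 calls of all genes in place of 9122, the same 1 higher and 5 lower of the 9 genes, and 0.0062 for CD68. In the libraries named with lane 7, chosen after seeing the data, 3 complement genes were called, and CD68 and MRC1 were at 0.038 and 0.11. Under either lane name, 1 of the 9 genes was higher and 5 were lower. Leaving out each library in turn gave 1 higher and 5 lower every time, and log2 changes of 2.07 to 2.22 for CD14, -1.32 to -1.17 for C1QB and -0.52 to -0.40 for CSF1R. The cause of these shifts was not tested, apart from the scaling itself. The 10 to 31 reads per lactation library limit what can be said of CSF1.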
